A study of Homo sapiens with 32 samples.

Results

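A set of 10 G protein-coupled receptors of myeloid cells was taken by symbol from a gene-level RNA sequencing table: GPR84, LPAR6, PTGER2, PTGER4, C3AR1, C5AR1, FPR1, CXCR4, CCR1 and CCR2. They are 10 of the 23073 genes in the table. They were picked with their levels under KDM1A inhibitors in view, so the inhibitor contrast is described for them without a test, as values, differences and their errors. KDM1A is a histone demethylase that removes methyl groups from lysine 4 of histone H3, and the study asked how its inhibitors act in acute myeloid leukaemia (AML). RNA was sequenced from Kasumi-1 and SKNO-1, established AML lines that carry the RUNX1-RUNX1T1 fusion, so each line is one model of that leukaemia. Cells were given RN-1, an irreversible KDM1A inhibitor, GSK690, a reversible one, or GSK690*, the isomer described in the labels as inactive, each at 1 µM, or 0.1% DMSO. The medium was RPMI, with 20% fetal calf serum for Kasumi-1. For SKNO-1 it held 10% serum and also GM-CSF, a myeloid growth factor, at 10 ng/mL. Libraries were made at 24 h and 72 h, although the treatment text gives 4 days for the later SKNO-1 cultures. Each of the 16 groups has 2 biological replicates, 32 libraries in all. The 4 combinations of line and time are called sets below. RN-1 and GSK690 are pooled as inhibitors, and DMSO and GSK690* as controls, 4 libraries against 4 in each set. Nothing in the labels says how the replicates were grown, so p-values measure the spread between these libraries only.

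Receptors of this class cross the cell membrane several times and pass a signal to a heterotrimeric G protein inside the cell. On myeloid cells they sense lipids (GPR84, LPAR6, PTGER2 and PTGER4), complement fragments (C3AR1 and C5AR1), bacterial formyl peptides (FPR1) and chemokines (CXCR4, CCR1 and CCR2), and they steer migration, degranulation and cytokine release. Depending on the G protein, cyclic AMP is raised (the prostaglandin E2 receptors) or lowered (GPR84 and the chemokine, complement and formyl peptide receptors).

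The values are FPKM (fragments per kilobase of transcript, scaled to the number of mapped fragments) as deposited, so levels are per length and can be set side by side between genes. They summed to between 332648 and 395945 per library. Read depth is unknown. Replicates of a group had r between 0.986 and 0.996 across genes. For the 16 libraries at 72 h the deposited sample table swaps the line names; each of them correlated at 0.974 to 0.986 with its titled line at 24 h and at 0.848 to 0.870 with the other, and the titles were used. The blast markers KIT, MPO, CD33 and RUNX1T1 were high in all sets (RUNX1T1 21.2 to 53.5 FPKM), whereas CD34 stayed under 1 FPKM in SKNO-1 controls and POU4F1 at 0.09 to 0.28 FPKM in Kasumi-1 and 0.95 to 2.10 in SKNO-1. With the inhibitors CD34 and CD33 rose in all 4 sets (limma adjusted p 0.0195 or lower) and KIT fell in all but SKNO-1 at 72 h. T cell and B cell markers were at most 2.04 FPKM and erythroid markers at most 0.16 FPKM, and EPCAM, an epithelial marker, read 61.0 to 83.5 FPKM in Kasumi-1 and at most 0.22 FPKM in SKNO-1.

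In both lines and at both times, inhibitor-treated cells had more RNA of GPR84, LPAR6 and CXCR4 and less of PTGER2 than controls. GPR84 was 4.89 and 9.53 times as high in Kasumi-1 at 24 h and 72 h, and 11.3 and 20.6 times as high in SKNO-1. LPAR6 was 2.78 to 4.84 times as high, and CXCR4 1.53 to 3.31 times, with its groups overlapping in Kasumi-1 at 24 h. PTGER2 stood at 0.386 to 0.666 of its control level. C3AR1 averaged lower with the inhibitors in every set, without overlap in Kasumi-1 and with overlap in SKNO-1. The groups of PTGER4 overlapped in every set. C5AR1 was higher with the inhibitors in SKNO-1 at 24 h and at most 0.171 FPKM in Kasumi-1, and FPR1, CCR1 and CCR2 were at most 0.522 FPKM in any library.

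Before the values, the sequences just upstream of the receptors that moved are shown, since the factors that recruit KDM1A in blood cells act at promoters and enhancers. A RefSeq promoter entry (build GRCh38.p14) was found for 9 of the 10 receptors, and GPR84 is named only. These starts were not matched to those of the deposited hg19 genes, so a window may not lie before the transcripts measured. The 250 bases before the start are printed 5′ to 3′ on the gene's strand, with capitals for a match to one of 3 motifs searched on both strands: TGTGGT (the core bound by RUNX factors), GAGGAAGT (a site of the PU.1 type) and AAATCA (the core bound by GFI1 and GFI1B). Shown are both kinds, LPAR6 and CXCR4, which were higher with the inhibitors, and PTGER2 and C3AR1, which were lower.
LPAR6, chr13:48413114-48413363, minus strand: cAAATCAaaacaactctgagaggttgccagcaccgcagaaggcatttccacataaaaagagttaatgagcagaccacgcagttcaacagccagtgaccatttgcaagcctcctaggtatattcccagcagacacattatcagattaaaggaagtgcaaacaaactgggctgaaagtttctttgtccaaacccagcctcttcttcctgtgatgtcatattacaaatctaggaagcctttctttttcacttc
CXCR4, chr2:136118150-136118399, minus strand, the first of 3 starts: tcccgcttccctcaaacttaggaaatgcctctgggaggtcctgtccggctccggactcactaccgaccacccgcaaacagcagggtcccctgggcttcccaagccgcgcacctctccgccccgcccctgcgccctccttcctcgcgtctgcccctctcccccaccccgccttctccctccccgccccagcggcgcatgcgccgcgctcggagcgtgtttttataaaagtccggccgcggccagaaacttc
PTGER2, chr14:52314062-52314311, plus strand: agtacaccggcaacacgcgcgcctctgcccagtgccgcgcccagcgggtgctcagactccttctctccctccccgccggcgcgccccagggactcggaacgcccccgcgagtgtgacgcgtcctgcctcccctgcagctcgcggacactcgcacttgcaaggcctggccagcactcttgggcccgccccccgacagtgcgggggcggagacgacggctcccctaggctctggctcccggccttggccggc
C3AR1, chr12:8066360-8066609, minus strand: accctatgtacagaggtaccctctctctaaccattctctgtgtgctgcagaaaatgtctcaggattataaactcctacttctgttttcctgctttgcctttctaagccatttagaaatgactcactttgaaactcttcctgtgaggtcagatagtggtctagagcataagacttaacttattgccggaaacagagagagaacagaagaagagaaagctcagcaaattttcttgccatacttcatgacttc
The LPAR6 window held AAATCA with its first base 249 bases before the start, and the windows of CXCR4 (at all 3 starts), PTGER2 and C3AR1 held none of the motifs. Of the receptors not printed, FPR1 and CCR2 held AAATCA (113 and 104 bases before the start, for CCR2 on the other strand), C5AR1 and CCR1 held TGTGGT on the other strand (23 and 157 bases), and PTGER4 held none. GAGGAAGT was in no receptor's window. Over all 35116 promoters in the table, 11% of windows of this length held TGTGGT, 2.17% GAGGAAGT and 11.6% AAATCA. The windows also differed in base composition: GC content was 42.8% for LPAR6 and 40.8% for C3AR1, against 74.0% for PTGER2, 72.8% for PTGER4 and 68.0% for the first start of CXCR4. A match is a run of letters and was not tested as a binding site.

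GPR84 is a receptor for medium-chain fatty acids, found mostly on monocytes, macrophages and neutrophils. Its gene lies at chr12:54756229-54758271 on the minus strand (hg19, as deposited; strands from GENCODE 29, where AC079313.1 and AC079313.2 overlap it on the opposite strand). In Kasumi-1 at 24 h it read 1.37 and 1.27 FPKM with DMSO, 1.69 and 1.44 with GSK690*, 8.45 and 6.73 with GSK690, and 6.69 and 6.34 with RN-1. At 72 h the same line gave 0.952 and 0.885 with DMSO, 1.07 and 1.504 with GSK690*, 10.3 and 10.99 with GSK690, and 10.6 and 10.2 with RN-1. All inhibitor libraries of Kasumi-1 lay above all of its controls, and those of 72 h above those of 24 h. SKNO-1 at 24 h gave 0.240 and 0.139 with DMSO, 0.502 and 0.202 with GSK690*, 3.93 and 3.08 with GSK690, and 2.95 and 2.25 with RN-1. At 72 h it gave 0.215 and 0.155 with DMSO, 0.308 and 0.515 with GSK690*, 5.27 and 8.08 with GSK690, and 4.50 and 6.70 with RN-1. The SKNO-1 groups did not overlap either, and the control level there was under 1 FPKM in all 8 libraries, so the ratio in this line rests on a low denominator. On the log2(FPKM + 1) scale, where low genes move less, the difference was 1.72 and 2.46 in Kasumi-1 at 24 h and 72 h and 1.67 and 2.44 in SKNO-1 (SE 0.12 each, 4 libraries against 4). With a pseudocount of 0.1 in place of 1 the SKNO-1 differences were 3.15 and 4.01.

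Of the 10 receptors 7 passed the filter on low values (1 FPKM or more in 2 or more libraries). They were chosen on this contrast, so whether each passed limma's threshold is not given as a result. Over all genes tested, 20.9%, 25.7%, 9.08% and 11.1% were called, at an adjusted p under 0.05 from limma, with the inhibitors in Kasumi-1 at 24 h and 72 h and SKNO-1 at 24 h and 72 h (9.69%, 13%, 5.64% and 6.91% higher; 11.2%, 12.7%, 3.44% and 4.16% lower). Groups of 4 were without overlap for 32.6%, 28.7%, 15.2% and 15.2% of tested genes. The libraries of 24 h and of 72 h carry different name prefixes, and time cannot be told apart from the library series. In SKNO-1 at 72 h the first replicates of DMSO and of RN-1 also carry another prefix than the other 6 libraries. That prefix falls equally on controls and inhibitors, so a term for it cancels and cannot change these log2 differences. With or without the term they were 2.44 for GPR84, 1.48 for LPAR6, 0.79 for CXCR4, -0.66 for C3AR1 and -0.85 for PTGER2. An effect of the prefix was therefore not tested by this term. Whether a receptor's response differed between lines or times was not tested.

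**Figure D1:**
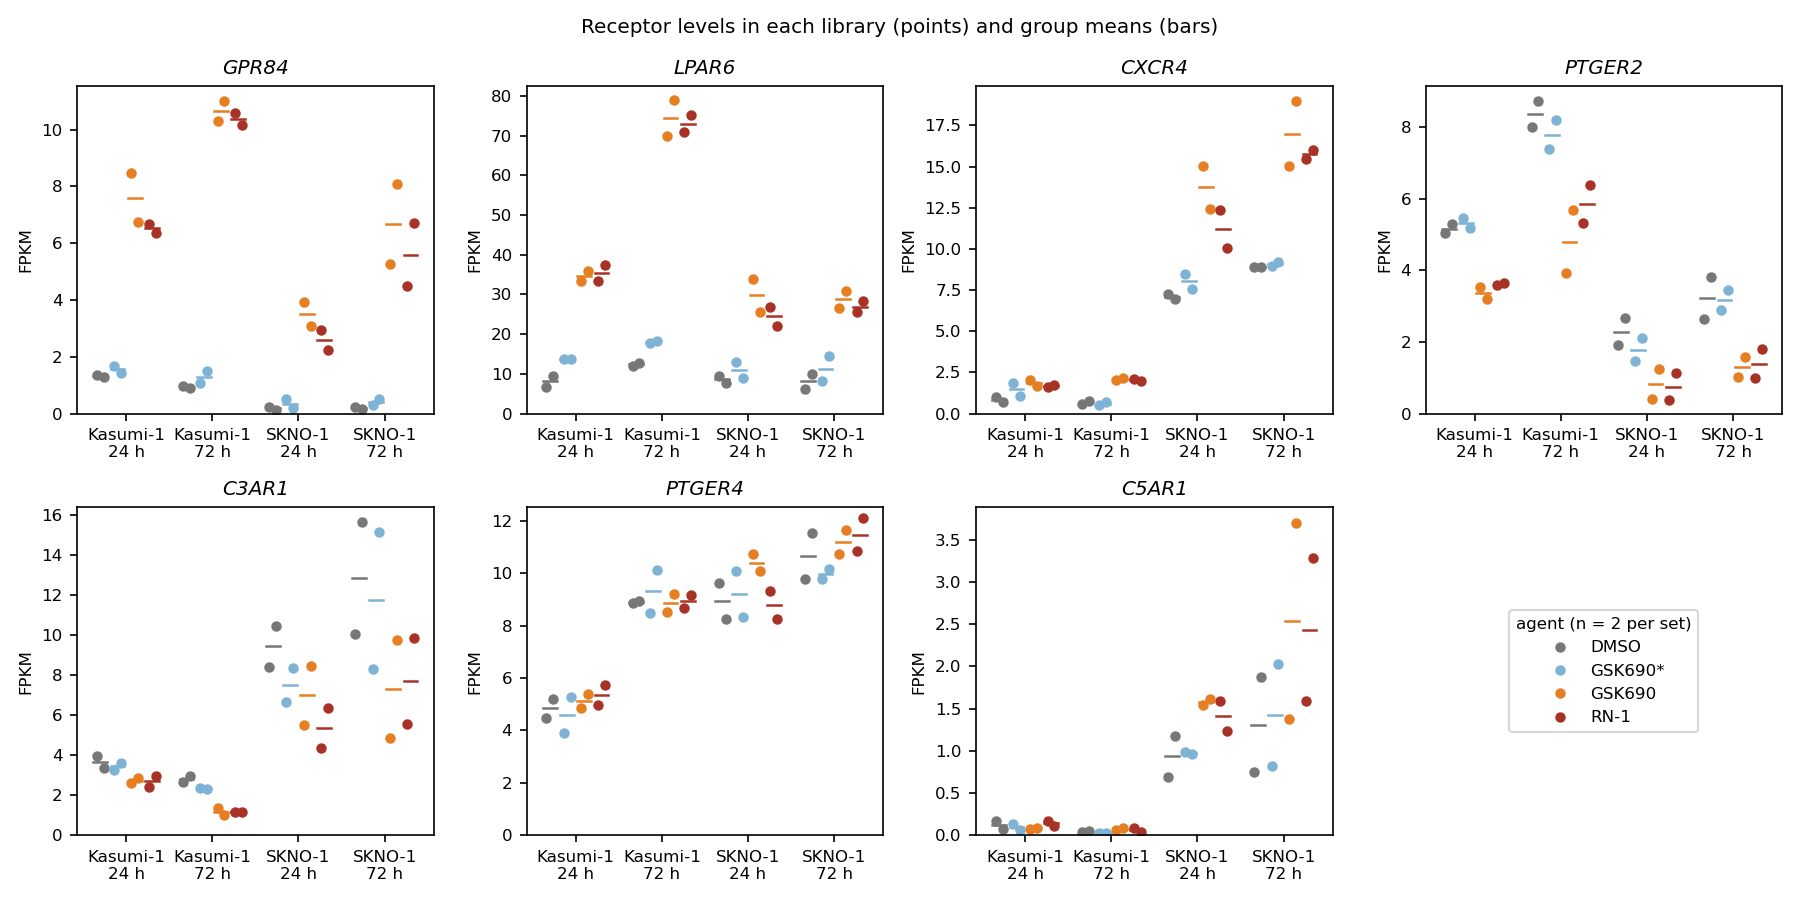
FPKM of the 7 receptors that passed the filter, in each of the 32 libraries (points, coloured by agent) with the mean of each group of 2 (bars), by cell line and time. GPR84 and LPAR6 with GSK690 or RN-1 lie above both controls in every set, PTGER2 lies below them, and PTGER4 overlaps.

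LPAR6, a receptor for lysophosphatidic acid, was the most abundant of the 10 in Kasumi-1 controls, at 10.95 ± 3.45 FPKM (SD, n = 4) at 24 h and 15.2 ± 3.29 at 72 h. In Kasumi-1 at 24 h it read 6.78 and 9.45 FPKM with DMSO, 13.7 and 13.8 with GSK690*, 33.3 and 35.8 with GSK690, and 33.4 and 37.4 with RN-1. The values at 72 h were 11.99 and 12.8 with DMSO, 17.7 and 18.4 with GSK690*, 69.8 and 78.9 with GSK690, and 70.9 and 75.2 with RN-1. The GSK690* libraries of Kasumi-1 lay between the DMSO and the inhibitor libraries at both times. SKNO-1 at 24 h gave 9.45 and 7.77 with DMSO, 13.01 and 8.90 with GSK690*, 33.8 and 25.7 with GSK690, and 26.9 and 22.2 with RN-1. At 72 h it gave 6.18 and 9.99 with DMSO, 8.20 and 14.4 with GSK690*, 26.6 and 30.9 with GSK690, and 25.5 and 28.3 with RN-1. All inhibitor libraries were above all controls in each set, and the SKNO-1 levels with DMSO and GSK690* overlapped. The log2 differences were 1.64 and 2.22 in Kasumi-1 and 1.39 and 1.48 in SKNO-1 (SE 0.15).

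LPAR6 (chr13:48963707-49018840, minus strand) lies within RB1, the retinoblastoma tumour suppressor (chr13:48877887-49056122, plus strand). The library type is not given in the sources used here, so reads of genes that overlap on opposite strands may not be told apart, here or for GPR84 above. RB1 read 21.6 ± 1.96 FPKM in controls and 27.3 ± 1.12 with the inhibitors in Kasumi-1 at 24 h, and 30.1 ± 1.75 and 43.8 ± 4.62 at 72 h (SD, n = 4). In SKNO-1 it read 24.4 ± 1.57 and 28.9 ± 4.53 at 24 h, and 27.6 ± 2.32 and 35.2 ± 2.75 at 72 h. Its log2 differences of 0.33, 0.53 and 0.34 in Kasumi-1 at 24 h, Kasumi-1 at 72 h and SKNO-1 at 72 h were called, and 0.23 in SKNO-1 at 24 h was not, so RB1 rose by a smaller fold (1.26, 1.46 and 1.27) than LPAR6 in the 3 sets where it was called. RCBTB2, which encodes an RCC1 and BTB domain protein, lies on the strand of LPAR6 (chr13:49063095-49107369). Its deposited span begins after that of RB1, but in GENCODE 29 the 2 genes overlap on opposite strands, so their reads may not be told apart either. It was described after its values were seen, because it ranked highest in likeness to LPAR6. Its level was 13.4 ± 1.82 in controls and 29.4 ± 2.25 FPKM with the inhibitors in Kasumi-1 at 24 h, 17.6 ± 1.95 and 55.8 ± 3.15 at 72 h, and in SKNO-1 13.4 ± 1.60 and 30.7 ± 6.51 at 24 h and 15.4 ± 1.32 and 35.6 ± 1.14 at 72 h, with no overlap in any set.

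**Figure D2:**
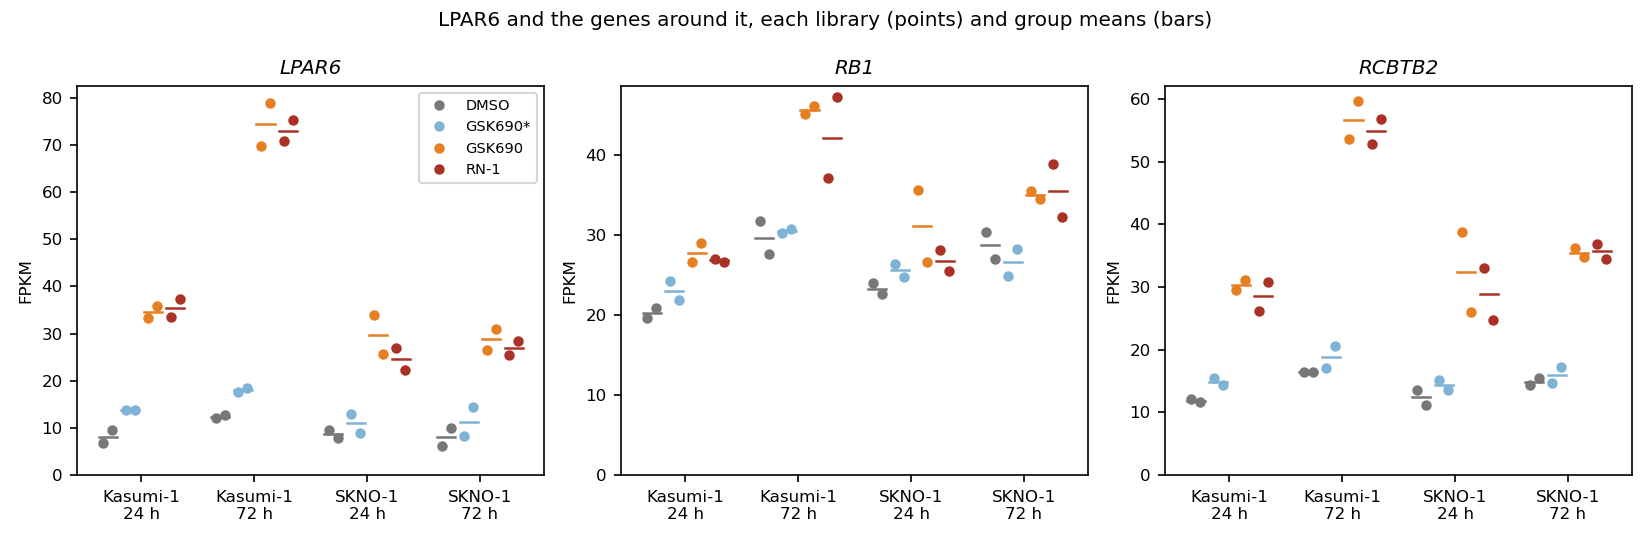
FPKM of LPAR6, of RB1, in which it lies, and of the neighbour RCBTB2 in each library (points) with group means (bars), by cell line, time and agent. LPAR6 and RCBTB2 separate inhibitors from controls in every set, with means up to 73.7 and 55.8 FPKM, and RB1 moves from 21.6 to 27.3 FPKM in Kasumi-1 at 24 h.

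The prostaglandin E2 receptors went apart. PTGER2 (EP2, chr14:52781023-52795324) read 5.03 and 5.30 FPKM with DMSO, 5.47 and 5.18 with GSK690*, 3.53 and 3.21 with GSK690, and 3.59 and 3.65 with RN-1 in Kasumi-1 at 24 h. Those of 72 h were 8.01 and 8.73 with DMSO, 7.39 and 8.20 with GSK690*, 3.92 and 5.69 with GSK690, and 5.32 and 6.38 with RN-1. In SKNO-1 at 24 h, DMSO gave 1.90 and 2.66, GSK690* 1.47 and 2.10, GSK690 0.402 and 1.25, and RN-1 0.370 and 1.12. At 72 h the SKNO-1 values were 2.65 and 3.82 with DMSO, 2.89 and 3.46 with GSK690*, 1.01 and 1.57 with GSK690, and 0.994 and 1.80 with RN-1. Every inhibitor library was below every control library of its set, and in SKNO-1 replicate 2 was above replicate 1 with each agent at both times. The log2 differences were -0.48 and -0.53 in Kasumi-1 and -0.79 and -0.85 in SKNO-1 (SE 0.16). With one of the 8 libraries of the set left out in turn, they ran from -0.50 to -0.45 in Kasumi-1 at 24 h and from -0.65 to -0.42 at 72 h. With a pseudocount of 0.1 the difference in SKNO-1 at 24 h was -1.41. PTGER4 (EP4, chr5:40679600-40693837, overlapped by TTC33 on the opposite strand in GENCODE 29) raises cyclic AMP like EP2. It averaged 4.71 ± 0.657 FPKM in controls and 5.24 ± 0.411 with the inhibitors in Kasumi-1 at 24 h, 9.11 ± 0.702 and 8.89 ± 0.363 at 72 h, and in SKNO-1 9.07 ± 0.917 and 9.59 ± 1.06 at 24 h and 10.3 ± 0.826 and 11.3 ± 0.646 at 72 h. The groups overlapped in each set, and the 95% intervals of its 4 log2 differences together spanned -0.22 to 0.32.

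The complement receptors C3AR1 and C5AR1, which bind the fragments C3a and C5a and are known for drawing in and activating granulocytes and monocytes, differed in level and direction. C3AR1 (chr12:8210898-8219067) in Kasumi-1 read 3.95 and 3.33 FPKM with DMSO, 3.27 and 3.62 with GSK690*, 2.60 and 2.84 with GSK690, and 2.42 and 2.93 with RN-1 at 24 h. Kasumi-1 at 72 h gave 2.67 and 2.95 with DMSO, 2.36 and 2.32 with GSK690*, 1.34 and 1.01 with GSK690, and 1.14 and 1.16 with RN-1. Both Kasumi-1 times showed the inhibitor libraries below the controls without overlap, with log2 differences of -0.30 at 24 h and -0.72 at 72 h (SE 0.20). SKNO-1 at 72 h gave 10.0 and 15.6 with DMSO, 8.30 and 15.2 with GSK690*, 4.86 and 9.74 with GSK690, and 5.54 and 9.86 with RN-1. Replicate 2 was the higher one with each agent there, and the groups overlapped. The log2 difference was -0.66, and -0.88 to -0.44 with one of the 8 libraries left out. At 24 h SKNO-1 averaged 8.47 ± 1.56 in controls and 6.16 ± 1.73 with the inhibitors, a log2 difference of -0.42.

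C5AR1 (chr19:47793280-47825323) was at most 0.171 FPKM in Kasumi-1. In SKNO-1 at 24 h it read 0.690 and 1.18 with DMSO, 0.983 and 0.963 with GSK690*, 1.55 and 1.61 with GSK690, and 1.59 and 1.24 with RN-1, with the inhibitor libraries above the controls. At 72 h it read 0.743 and 1.88 with DMSO, 0.821 and 2.04 with GSK690*, 1.38 and 3.70 with GSK690, and 1.59 and 3.28 with RN-1. Here the groups overlapped, and replicate 2 was above replicate 1 with each agent. The log2 differences were 0.36 and 0.54 (SE 0.19).

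FPR1, the receptor for bacterial formyl peptides, and the chemokine receptors CCR1 and CCR2 did not pass the filter: their highest value in any library was 0.522 FPKM. CCR2, the receptor for CCL2 that draws monocytes out of the marrow, averaged 0.111 ± 0.0506 FPKM in controls and 0.420 ± 0.0914 with the inhibitors in Kasumi-1 at 24 h, and 0.0846 ± 0.0688 and 0.237 ± 0.0459 at 72 h, without overlap. In SKNO-1 it reached 0.159 FPKM at most. FPR1 (chr19:52248425-52307363) averaged 0.0173 ± 0.0217 and 0.146 ± 0.0359 in Kasumi-1 at 24 h, without overlap, and overlapped in the other sets. CCR1 averaged between 0.118 and 0.145 FPKM in the controls of the 4 sets and between 0.171 and 0.230 with the inhibitors, without overlap in Kasumi-1 at 24 h and SKNO-1 at 72 h. FPR1 shares its span with FPR2 and FPR3, and CCR1 with CCR3, on the opposite strand. At these levels no fold is drawn.

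CXCR4, the receptor for CXCL12 that holds blood precursors in the marrow, lies at chr2:136871919-136875735. In Kasumi-1 at 24 h it read 0.977 and 0.688 FPKM with DMSO, 1.86 and 1.09 with GSK690*, 2.07 and 1.65 with GSK690, and 1.60 and 1.76 with RN-1. GSK690* replicate 1 lay above 3 of the 4 inhibitor libraries, so the groups overlapped. At 72 h the values were 0.555 and 0.741 with DMSO, 0.505 and 0.690 with GSK690*, 2.06 and 2.15 with GSK690, and 2.08 and 1.96 with RN-1. SKNO-1 at 24 h gave 7.24 and 6.97 with DMSO, 8.50 and 7.55 with GSK690*, 15.03 and 12.4 with GSK690, and 12.4 and 10.0 with RN-1. At 72 h it gave 8.92 and 8.92 with DMSO, 8.94 and 9.22 with GSK690*, 15.03 and 18.97 with GSK690, and 15.5 and 16.0 with RN-1. The inhibitor libraries were above the controls in those 3 sets. The log2 differences were 0.39 and 0.92 in Kasumi-1 and 0.64 and 0.79 in SKNO-1 (SE 0.10). The difference in Kasumi-1 at 24 h was 0.27 without GSK690* replicate 2 and 0.28 with quantile normalization. With a pseudocount of 0.1 the Kasumi-1 differences were 0.65 and 1.59.

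**Figure D3:**
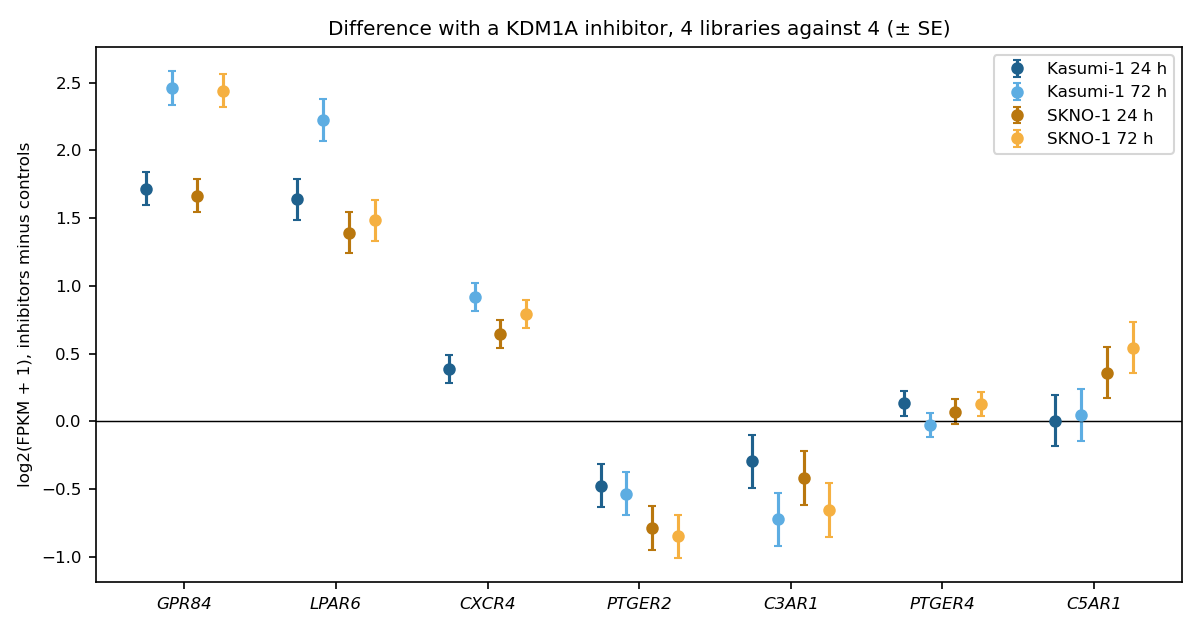
Difference in log2(FPKM + 1) between the 4 inhibitor and the 4 control libraries of each set, with its SE from limma, for the 7 receptors that passed the filter. GPR84 (1.67 to 2.46), LPAR6 (1.39 to 2.22) and CXCR4 (0.39 to 0.92) lie above 0 in all sets, PTGER2 (-0.85 to -0.48) and C3AR1 (-0.72 to -0.30) below, and PTGER4 near 0.

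The isomer GSK690* was compared with DMSO at the same times, to see how far the receptors moved with a compound given as inactive. None of 28 values (7 receptors in 4 sets) was called by limma, 3 had an unadjusted p under 0.05, and 0% of genes were called in any set, with 305, 111, 218 and 268 genes at an unadjusted p under 0.05 in Kasumi-1 at 24 h and 72 h and SKNO-1 at 24 h and 72 h. The differences ran from -0.29 to 0.71 on the log2(FPKM + 1) scale, and their 95% intervals together from -0.87 to 1.16. LPAR6 had the highest, 0.71 in Kasumi-1 at 24 h (95% interval 0.27 to 1.16) and 0.51 at 72 h (0.06 to 0.95), then 0.30 (-0.15 to 0.74) and 0.42 (-0.02 to 0.87) in SKNO-1. CXCR4 in Kasumi-1 at 24 h was the third value whose interval did not reach 0, at 0.42 (0.12 to 0.72). Averaged over the sets, a contrast added after these values were seen, LPAR6 with GSK690* was 0.49 above DMSO (95% interval 0.26 to 0.71; limma adjusted p = 0.1795), higher in 4 of 4 set means. It was not called, with 0.0589% of genes called. With the replicate number as a block within each set it was called, so the call depends on the model. GPR84 averaged 0.20 above DMSO (0.02 to 0.38; limma adjusted p = 1.00). These differences are within the control groups above; with DMSO as the only control the log2 differences of the inhibitors ran from 1.54 to 2.48 for LPAR6 and from 1.75 to 2.58 for GPR84 over the sets.

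RN-1 and GSK690, which differ in being irreversible and reversible, were compared at the same dose and times. None of the 28 differences was called and none had an unadjusted p under 0.05. The share of all genes called was 0% in 3 sets and 0.00841% (1 gene) in Kasumi-1 at 72 h, and 86, 839, 613 and 120 genes had an unadjusted p under 0.05 in Kasumi-1 at 24 h and 72 h and SKNO-1 at 24 h and 72 h. The receptor differences ran from -0.32 to 0.25, and the 95% intervals together spanned -0.90 to 0.72, so a difference of that size between the inhibitors could go unseen in a single set of 2 against 2. The lowest adjusted p was 0.778 (limma, PTGER2 in Kasumi-1 at 72 h). GPR84 was lower with RN-1 than with GSK690 in 4 of 4 set means, by a mean log2 difference of -0.19 (95% interval -0.37 to -0.01; limma adjusted p = 1.00; 0.0168% of genes called in this mean, which was added after the values were seen). LPAR6 differed by -0.09 (-0.31 to 0.14) and CXCR4 by -0.12 (-0.27 to 0.03). Each of these 2 comparisons gave 28 differences, with p-values adjusted over all tested genes in each set.

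**Figure D4:**
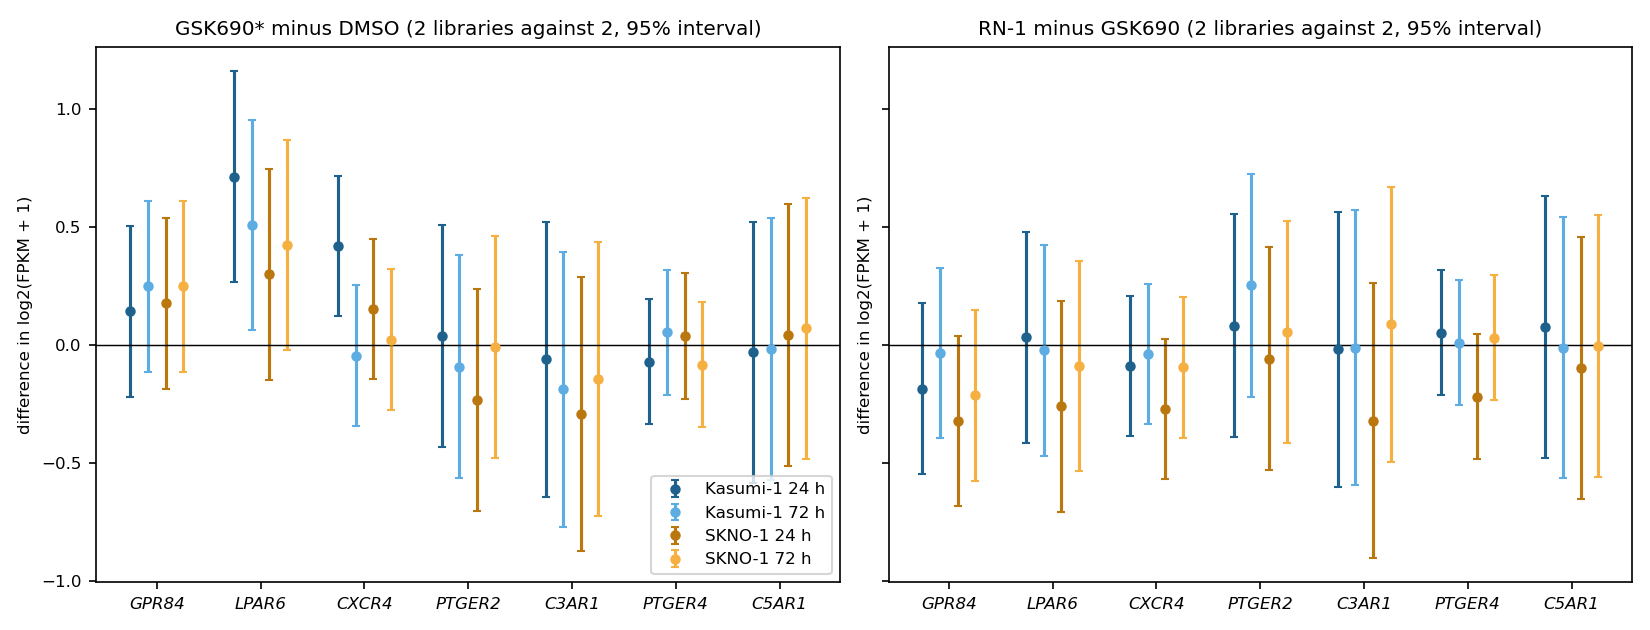
Difference in log2(FPKM + 1) between GSK690* and DMSO (left) and between RN-1 and GSK690 (right) in each set, 2 libraries against 2, with the 95% interval from limma. LPAR6 with GSK690* reaches 0.71 in Kasumi-1 at 24 h, and the differences between RN-1 and GSK690 lie between -0.32 and 0.25.

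The lines carried different receptors before any inhibitor was given. Control Kasumi-1 cells had more GPR84 and PTGER2, and control SKNO-1 cells more CXCR4, C3AR1 and C5AR1, at both times. CXCR4 read 1.15 ± 0.500 FPKM in Kasumi-1 against 7.56 ± 0.664 in SKNO-1 at 24 h (SD, n = 4; log2 difference -2.02, limma adjusted p = 8.54e-14), and 0.623 ± 0.111 against 9.0 ± 0.147 at 72 h (-2.63, adjusted p = 6.49e-16). C3AR1 was lower in Kasumi-1 by -1.05 (adjusted p = 7.38e-05) and -1.85 (adjusted p = 2.69e-08). GPR84 was higher in Kasumi-1 by 0.95 (adjusted p = 5.59e-07) and 0.70 (adjusted p = 3.28e-05), and PTGER2 by 1.06 (adjusted p = 4.90e-06) and 1.12 (adjusted p = 2.12e-06). PTGER4 was lower in Kasumi-1 at 24 h (-0.82, adjusted p = 4.64e-08) and not called at 72 h (-0.16, 95% interval -0.35 to 0.03). LPAR6 was not called at 24 h (0.12, -0.20 to 0.44) and was higher in Kasumi-1 at 72 h (0.63, adjusted p = 0.000830). C5AR1 passed the filter on low values only through SKNO-1, so its means are given without a test: 0.106 ± 0.0506 FPKM in Kasumi-1 against 0.953 ± 0.199 in SKNO-1 at 24 h, and 0.0341 ± 0.0101 against 1.37 ± 0.682 at 72 h. Of all genes, 69.1% and 70.8% were called between the lines (30.9% and 32.6% higher in Kasumi-1, 38.2% and 38.2% lower), so the receptors are not set apart from other genes by this. Line and culture medium, GM-CSF included, cannot be told apart here. With a pseudocount of 0.1 the GPR84 differences were 2.14 and 1.65.

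In Kasumi-1 controls at 24 h LPAR6 led, then PTGER2, PTGER4 and C3AR1, where the first pair and the last pair overlapped in range, then GPR84 and CXCR4, which also overlapped, and last CCR1, CCR2, C5AR1 and FPR1, each below 0.2 FPKM. In SKNO-1 controls at 24 h LPAR6, PTGER4, C3AR1 and CXCR4 (means 9.78, 9.07, 8.47 and 7.56 FPKM) overlapped each with the next, and at 72 h C3AR1, PTGER4, LPAR6 and CXCR4 did so. PTGER2 and then C5AR1 followed at both times, and GPR84 came next, overlapping with FPR1. With the inhibitors GPR84 moved to the second place in Kasumi-1 (7.05 ± 0.948 FPKM at 24 h and 10.5 ± 0.366 at 72 h) and to the fifth in SKNO-1 (3.05 ± 0.688 and 6.14 ± 1.58), in the last case overlapping with C3AR1.

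**Figure D5:**
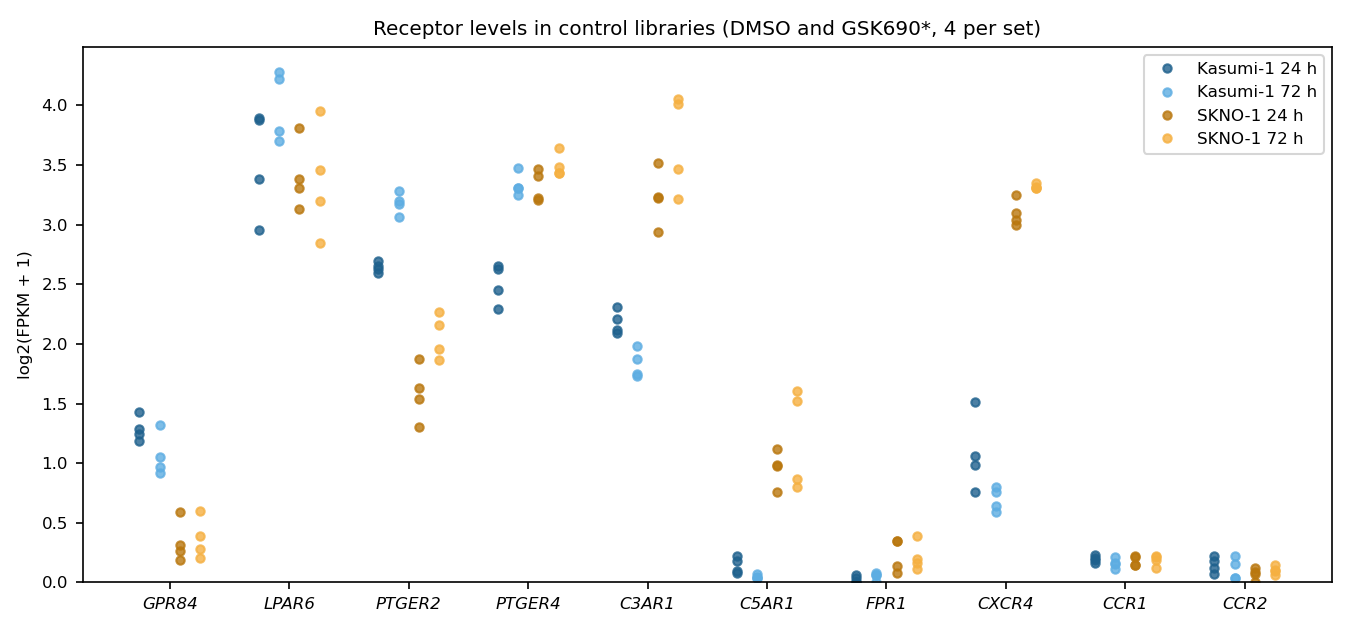
Level of the 10 receptors as log2(FPKM + 1) in the 4 control libraries (DMSO and GSK690*) of each line and time, one point per library. CXCR4, C3AR1 and C5AR1 are higher in SKNO-1, GPR84 and PTGER2 in Kasumi-1, and FPR1, CCR1 and CCR2 lie near 0 in both lines.

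The rest of the pathway was read from lists of other receptors and signalling partners, against medians over all tested genes of -0.01 to -0.02. Of 84 other receptors of this class 35 were tested, and 8 rose and 0 fell with the inhibitors in Kasumi-1 at 24 h, 6 and 2 at 72 h, 3 and 1 in SKNO-1 at 24 h, and 5 and 3 at 72 h (median log2 differences 0.14, 0.01, 0.11 and 0.08). With both directions pooled these are 22.9%, 22.9%, 11.4% and 22.9% of those tested. Of all genes 20.9%, 25.7%, 9.08% and 11.1% were called, close to it in the first 3 sets. By direction, 9.69%, 13%, 5.64% and 6.91% of all genes were higher and 11.2%, 12.7%, 3.44% and 4.16% lower. More of the called receptors rose than fell in each set, which was not tested. Here too a gene low in controls could pass the filter through the inhibitor libraries alone. GPR65, an acid-sensing receptor of myeloid and lymphoid cells, rose in all sets, from 1.01 ± 0.457 to 5.59 ± 0.684 FPKM in Kasumi-1 at 24 h (log2 1.73, limma adjusted p = 1.63e-10) and from 3.03 ± 0.714 to 7.88 ± 1.72 in SKNO-1 at 24 h (1.14, adjusted p = 2.48e-07). P2RY14, a receptor for UDP-glucose, rose in Kasumi-1, from 0.947 ± 0.381 to 2.67 ± 0.473 FPKM at 24 h (0.93, adjusted p = 0.00590) and from 1.33 ± 0.417 to 6.21 ± 0.736 at 72 h (1.64, adjusted p = 1.61e-05), and in SKNO-1 at 72 h (0.99). S1PR1, the sphingosine 1-phosphate receptor that guides exit from tissues, rose in SKNO-1 from 0.312 ± 0.262 to 2.78 ± 2.07 FPKM at 24 h (1.39, adjusted p = 0.000601) and from 0.224 ± 0.142 to 3.004 ± 1.12 at 72 h (1.68, adjusted p = 4.12e-05).

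Of 19 G protein subunits tested, 4 rose and 0 fell in Kasumi-1 at 24 h, 4 and 1 at 72 h, 1 and 1 in SKNO-1 at 24 h, and 3 and 1 at 72 h. With both directions pooled that is 21.1%, 26.3%, 10.5% and 21.1%. This is again close to the share of all genes (20.9%, 25.7% and 9.08%) except in SKNO-1 at 72 h (11.1%), where it is 4 genes. GNA15, the blood-restricted alpha subunit that couples many receptors to phospholipase C, rose in Kasumi-1 from 12.4 ± 1.62 to 21.2 ± 1.28 FPKM at 24 h (0.73, limma adjusted p = 0.000204) and from 14.6 ± 1.14 to 34.3 ± 4.63 at 72 h (1.17, adjusted p = 2.58e-07). GNG2, a gamma subunit, rose in all sets, by 0.56 and 0.55 in Kasumi-1, and in SKNO-1 from 5.39 ± 1.48 to 12.3 ± 0.900 at 24 h (1.08, adjusted p = 3.36e-06) and from 7.21 ± 1.48 to 18.2 ± 3.87 at 72 h (1.22, adjusted p = 4.20e-07). GNAI1, an alpha subunit that lowers cyclic AMP, rose in Kasumi-1, by 0.33 at 24 h and 0.74 at 72 h (9.72 ± 1.56 to 16.8 ± 1.25 FPKM), and GNAI3 of the same class fell in SKNO-1 at 24 h (22.1 ± 0.501 to 18.8 ± 2.05 FPKM) and at 72 h. GNB5, a beta subunit, rose in SKNO-1 at 72 h by 0.42 (adjusted p = 0.0191).

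Among 16 receptor kinases, arrestins and RGS proteins tested, 2 rose and 1 fell in Kasumi-1 at 24 h, 3 and 1 at 72 h, and 2 and 0 in SKNO-1 at each time. With both directions pooled the shares of 18.8%, 25%, 12.5% and 12.5% are near those of all genes (20.9%, 25.7%, 9.08% and 11.1%). RGS proteins end signalling by speeding GTP hydrolysis on the alpha subunit. RGS18 rose in Kasumi-1 from 7.41 ± 1.31 to 14.4 ± 0.982 FPKM at 24 h (0.88, limma adjusted p = 1.14e-06) and from 6.17 ± 0.635 to 19.7 ± 1.80 at 72 h (1.53, adjusted p = 1.36e-10). RGS2 rose in all sets (Kasumi-1 0.48 and 0.59, SKNO-1 0.34 and 0.40). RGS12 rose in SKNO-1 by 0.35 and 0.74 at 24 h and 72 h, and RGS3 fell in Kasumi-1 at 24 h by 0.54. Of 20 effector enzymes tested, 1 rose and 0 fell in Kasumi-1 at 24 h, 4 and 3 at 72 h, 2 and 0 in SKNO-1 at 24 h, and 4 and 1 at 72 h, or 5%, 35%, 10% and 25% against the same shares of all genes. PDE4B, which breaks down cyclic AMP, rose in Kasumi-1 by 0.68 and 0.67 at 24 h and 72 h, and PLCB2, a phospholipase C of blood cells, by 0.57 in Kasumi-1 at 72 h and 0.59 and 0.52 in SKNO-1. Of the adenylyl cyclases, which make cyclic AMP, ADCY7 rose in SKNO-1 by 0.35 at 24 h and 0.48 at 72 h, and ADCY6 by 0.85 at 72 h.

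Of 8 ligands or ligand-making enzymes tested, 0 rose and 1 fell at each time in Kasumi-1, and 1 rose and 0 fell at each time in SKNO-1, where 1 gene is 12.5% of the list and 20.9%, 25.7%, 9.08% and 11.1% of all genes were called. In Kasumi-1 these were PTGES3, a co-chaperone also described as a prostaglandin E synthase, at 24 h (180.8 ± 13.4 to 146 ± 5.86 FPKM) and CCL5, a ligand of CCR1, at 72 h (36.0 ± 3.98 to 20.1 ± 4.60 FPKM; log2 -0.83, limma adjusted p = 5.37e-06). In SKNO-1 it was ENPP2, the enzyme that makes lysophosphatidic acid outside the cell, at 24 h (2.52 ± 0.487 to 3.47 ± 0.178 FPKM; 0.35, adjusted p = 0.0122) and at 72 h (3.33 ± 0.542 to 4.52 ± 0.291; 0.36, adjusted p = 0.00819).

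Genes whose level followed a receptor most closely were ranked by Pearson's r over the 32 libraries, after the mean of each set was taken from log2(FPKM + 1). Since the libraries fall into controls and inhibitors, r here mostly repeats that difference, and it is given as a description. For GPR84 the 5 highest were RGMB (0.987), RCBTB2 (0.973), LY96 (0.973), OSBPL11 (0.972) and SIRPB2 (0.971). LY96, the partner of TLR4 in sensing lipopolysaccharide, went from 0.0586 to 7.44 FPKM in Kasumi-1 at 24 h, and RGMB, which binds BMP ligands beside their receptors, from 0.0832 to 3.83. LPAR6 was most like RCBTB2 (0.979) and C19orf38 (0.977), and CXCR4 most like GPR84 (0.947) and RCBTB2 (0.944). PTGER2 was most like LONRF3 (0.929) and IDI1 (0.927), C3AR1 most like PTPN22 (0.947) and TRERF1 (0.911), and C5AR1 most like CLEC12B (0.950) and KIAA0040 (0.913). In Kasumi-1 C5AR1 and both of its genes were near 0 (means at most 0.00744 FPKM for CLEC12B and 0.0506 for KIAA0040). Their r therefore rests mostly on SKNO-1, where C5AR1 also differed between replicates at 72 h. PTGER4, whose groups overlapped in each set, had lower values, with PTGS1 at 0.749, which encodes cyclooxygenase-1 upstream of its ligand, and KIAA0141 at 0.731.

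Monocyte markers moved in the same libraries as the receptors. Of 20 markers 12 were tested, and 8 rose and 1 fell in Kasumi-1 at 24 h, 8 and 0 at 72 h, and 7 and 0 in SKNO-1 at each time, which is 75%, 66.7%, 58.3% and 58.3% against 20.9%, 25.7%, 9.08% and 11.1% of all genes. A marker low in controls could pass the filter through the inhibitor libraries alone, as ITGAM did (control means of 0.33 to 0.57 FPKM). The list was also chosen with earlier results of these data known. Both can raise these shares, which are given as a description only. The summed level of the list was 64.1 to 97.5 FPKM in controls and 225.4 to 276.6 with the inhibitors in Kasumi-1 at 24 h, and 68.2 to 92.1 and 185.4 to 245.7 at 72 h. In SKNO-1 it was 74.2 to 106.8 and 144.4 to 216.9 at 24 h, and 94.8 to 114.9 and 200.8 to 240.8 at 72 h. LYZ, which encodes lysozyme, read 7.95 to 27.3 FPKM in controls and 94.0 to 150.9 with the inhibitors in Kasumi-1 at 24 h, and CTSS, which encodes the protease cathepsin S, 16.4 to 24.4 and 50.6 to 62.6. The defining monocyte markers CD14 and FCGR3A read at most 0.26 FPKM in any library, and S100A12 at most 0.08. Of 11 neutrophil markers 5 were tested; 1 fell in Kasumi-1 at 24 h and 2 at 72 h (20% and 40%, against 20.9% and 25.7% of all genes), with no call in SKNO-1. In these bulk libraries a change in the number of cells that carry a receptor and a change in RNA per cell cannot be told apart, and the part of the monocyte markers in the receptor values was not tested.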

How the data were processed

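RNA sequencing libraries of 2 AML lines (32 libraries, 16 groups of 2) were used as deposited by the authors, as FPKM per Ensembl gene with a symbol and locus table. TopHat 1.4.1, Cufflinks and hg19 are named, without role or order, per the submitters' processing notes; annotation release and library type are not given in the sources used here. The deposited FPKM values carry no counts, so read depth is unknown and no counting interval was computed. Relative depth, read from the steps of 1 to 14 low genes per library, was 0.735 to 1.18, a rough estimate. Locus starts were read as counted from 0, since end minus start equalled the gene length in 13379 of 19829 genes compared (384 otherwise), and are printed counted from 1. The 102 missing cells were left out.

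Genes that reached 1 FPKM in 2 or more libraries (11890, of them 7 of the 10 receptors) were tested as log2(FPKM + 1) with limma 3.58.1 in R 4.3.3, one model of the 16 groups over all 32 libraries with a mean-dependent prior variance and Benjamini-Hochberg adjustment over tested genes, threshold 0.05. The script was tested on simulated data. Contrasts were inhibitors against controls, GSK690* against DMSO and RN-1 against GSK690 in each set, and the lines in controls. The receptors, lists and tests were chosen with earlier results of these data known. Named partners are up to 2 called genes per list and set with the largest absolute change; likeness was ranked for the 5 (GPR84) or 2 closest genes. Alternatives were a pseudocount of 0.1, no filter, quantile and median of ratios scaling, a replicate block, fits of the compared sets alone, DMSO as the only control, a term for library name and leaving out each library.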

Additional observations from a re-analysis of the deposited data

Results flagged for a closer look

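Within each group of 4 libraries the highest or lowest value was compared with the rest, and 4 of 80 groups held a library far from the others. Chance flags about 1 in 20 groups. C5AR1 in Kasumi-1 controls at 72 h was 0.0490 FPKM in DMSO replicate 2 and 0.0279 to 0.0313 in the other 3, all near 0. C5AR1 with the inhibitors in SKNO-1 at 24 h was 1.24 FPKM in RN-1 replicate 2 and 1.55 to 1.61 in the others, still above the 4 controls. FPR1 with the inhibitors in SKNO-1 at 24 h was 0.311 FPKM in GSK690 replicate 2 and 0.243 to 0.251 in the others. CXCR4 in SKNO-1 controls at 72 h was 9.22 FPKM in GSK690* replicate 2 and 8.92 to 8.94 in the others, a gap that is small beside the inhibitor values.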

How the results depend on the processing

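Direction was checked for the receptor values that passed the threshold of limma in the main fit, and none of them reversed under any alternative run. The replicate block, the fits of the compared sets alone and the library name term leave these differences unchanged by the layout. Those runs could therefore not have reversed a value. The other receptor values were not checked in this way. With the inhibitors the receptors were chosen on the contrast, so nothing is read from their kept direction or from their calls. The calls are counted only to compare the alternative runs. Shares of all genes called were 20.9%, 25.7%, 9.08% and 11.1% in Kasumi-1 (24 h, 72 h) and SKNO-1 (24 h, 72 h). In the same order, the number of the 7 tested receptors past the threshold of limma was 4, 5, 4 and 5. It ranged from 2 to 3, 4 to 5, 4 to 4 and 5 to 5 when one library was left out. In the first set PTGER2 fell short of the threshold in all 8 of these runs, at log2 differences of -0.50 to -0.45. CXCR4 did so in 1 of 8, without GSK690* replicate 2 (0.27). PTGER2 in Kasumi-1 at 72 h and C3AR1 in SKNO-1 at 72 h fell short in 4 of 8 each. An unchanged count therefore need not hold the same receptors. Depth is unknown, so no counting error is given for receptors under 1 FPKM.

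With the replicate number as a block within each set, 1 receptor, LPAR6, was called for GSK690* against DMSO over the sets in place of 0. Outside the inhibitor contrast the block changed no other receptor call. Receptor calls on the inhibitor contrast are not counted for the block, since the receptors were chosen on it. Same-numbered libraries deviated together with r from 0.04 to 0.70. Groups hold only 2 numbers and the labels tie a number to no batch, so what such libraries share is not known.

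All-gene counts called with the inhibitors (2479, 3052, 1080 and 1316) moved more: 3733, 4300, 2307 and 2715 with the block, 160 and 400 in SKNO-1 with its sets fitted alone, 668 at 24 h with DMSO alone, and 1498 to 2095, 2022 to 2852, 387 to 1451 and 860 to 1602 with one library left out. Of those called in SKNO-1 at 24 h, 62.1% were higher, and 73.5% with median of ratios scaling. For GSK690* against DMSO 0 to 8 genes were called in single sets, and for RN-1 against GSK690 0 to 9, with up to 92 in Kasumi-1 at 72 h when one library was left out. Over the sets they were 7 (2 to 35) and 2 (0 to 5).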
